A study of Mus musculus with 12 samples.

Results

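The 9 genes of non-muscle and smooth muscle myosin II and its light chain kinase were chosen by name, and every array probe whose RefSeq accession belongs to one of them was taken. They are the heavy chain genes Myh9, Myh10, Myh14 and Myh11, the regulatory light chain genes Myl9, Myl12a and Myl12b, the essential light chain gene Myl6 and the kinase gene Mylk. They are 9 of the 21154 genes named on the array and are read by 11 of its 55681 probes, 2 each for Myh14 and Myl6 and 1 for each of the other genes. The rule itself uses no measured value.

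Myosin II is the motor that pulls on actin filaments. Each molecule holds a pair of heavy chains with the motor domain, a pair of essential light chains that stiffen the lever arm, and a pair of regulatory light chains whose phosphorylation, by myosin light chain kinase (Mylk) among others, switches filament assembly and motor activity on. Myh9, Myh10 and Myh14 encode the non-muscle heavy chains IIA, IIB and IIC, of which IIB is known as the prominent form in neural tissue, whereas Myh11 encodes the smooth muscle heavy chain. Several contractile genes of smooth muscle are textbook targets of Srf, the serum response factor, which binds DNA at the CArG box, and of its cofactor Mkl1, which monomeric actin holds back.

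The cells were mouse neural progenitor cells (NPCs) made in culture from embryonic stem cells, and RNA of each sample was read on a 1-colour Agilent array, 2 arrays in each of 6 groups. All 12 samples carried a retrovirus. In the overexpression experiment it delivered the open reading frame of EGFP (the control), Mkl1 or Srf, and in the knockdown experiment a short hairpin RNA transcribed from an H1 promoter, which targeted EGFP in the control shEGFP and Actb, the β-actin gene, in shActb_1 and shActb_2. The study describes array duplicates of the knockdown as technical, and no label gives separate cultures for the other groups, so the p-values below measure array-to-array error and not the spread between cultures, and a change in RNA per cell cannot be told apart from a change in the kinds of cells present.

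The number of probes well above background ran from 33008 to 40359 over the arrays, no spot was saturated, and arrays of a group correlated at r = 0.993 to 0.998 over probes detected on both. Levels are given as log2 signal minus the 75th percentile of that array, so a level of 0 is the signal that 75% of probes do not exceed, and levels of different genes are not comparable. EGFP, Mkl1 and Srf shared a slide, on which EGFP lay in another row, so row and treatment cannot be told apart there, and shEGFP and shActb_1 shared another slide. shActb_2 lay on a slide of its own, so slide and hairpin cannot be told apart for it. Of the 10 neural progenitor markers, 8 or 9 were well above background on both arrays of each group. Olig2 was above background on no array of 5 groups and on 1 array of Mkl1.

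The targeted genes were read first. Actb fell by 0.53 (SE 0.05, adjusted p = 0.00128) with shActb_1 and fell by 0.65 (SE 0.05, adjusted p = 0.000197) with shActb_2 on the log2 scale, which is 1.45-fold and 1.57-fold. Both probes of Mkl1, listed as Mrtfa, differed between Mkl1 and EGFP by 0.17 (SE 0.11, adjusted p = 0.312) and 0.20 (SE 0.08, adjusted p = 0.120). Both Srf probes fell in the group labelled Srf, with differences of -1.40 (SE 0.13, adjusted p = 0.000266) and -2.46 (SE 0.06, adjusted p = 2.54e-06) against EGFP. Where these probes lie relative to the introduced reading frames was not determined, so neither transgene was checked by them. The group is called "the arrays labelled Srf" for that reason.

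The letters before the gene starts are shown for the myosin II genes that hold a CArG box there. RefSeq promoter windows (GRCm38.p6) were present for 8 of the 9 genes, 2 of them for Myl6, and none for Myh11. In the 250 bases before the start, 2 of 9 windows held a box, those of Myl9 and of the second start of Myl6, against 482 of 32851 windows of the same length over all genes (1.47%). The search covered both strands, and each box reads as a box on either strand. The Myl9 window is chr2:156775214-156775463 (plus strand), with the box 161 to 152 bases before the start, and the Myl6 window is chr10:128493010-128493259 (minus strand), with the box 50 to 41 bases before the start. Each sequence runs 5′ to 3′ on the strand of its gene, and capitals mark the box.
Myl9: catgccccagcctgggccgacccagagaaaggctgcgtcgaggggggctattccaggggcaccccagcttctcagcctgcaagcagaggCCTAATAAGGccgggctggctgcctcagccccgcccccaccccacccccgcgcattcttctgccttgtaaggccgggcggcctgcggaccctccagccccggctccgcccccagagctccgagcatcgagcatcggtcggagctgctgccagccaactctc
Myl6: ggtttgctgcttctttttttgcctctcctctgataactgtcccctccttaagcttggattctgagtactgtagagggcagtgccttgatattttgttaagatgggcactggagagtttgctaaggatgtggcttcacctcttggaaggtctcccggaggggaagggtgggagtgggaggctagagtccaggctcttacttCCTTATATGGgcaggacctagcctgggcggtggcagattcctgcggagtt
The presence of a box in these windows is a description and not evidence of binding. The windows of Myh9, Myh10, Myh14, Myl12a, Myl12b and Mylk and the first window of Myl6 held no such run of letters.

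**Figure D1:**
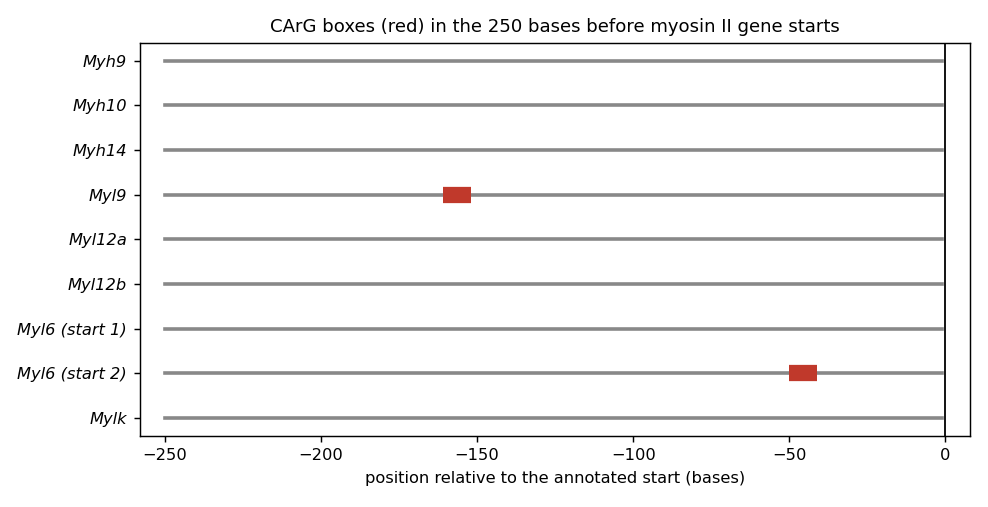
Position of CArG boxes (red blocks) in the 250 bases before each RefSeq start of the myosin II genes, with distance to the start on the horizontal axis in bases. Only the Myl9 window and the second Myl6 window hold a box, at 161 and 50 bases before the start.

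The regulatory light chain gene Myl9 and the smooth muscle heavy chain gene Myh11 made the largest moves among the 9 genes, and they did not move in the same groups. Myl9 rose with Mkl1 and with both Actb hairpins, by 8.68-fold to 20.1-fold. Myh11 rose with Mkl1, on the arrays labelled Srf and with shActb_2, from signals that were not well above background in both controls. Myh14 and Mylk rose over 2-fold only on the arrays labelled Srf among the 4 comparisons with a control, and for Myh14 this holds for the brighter of its probes. Myh9, Myh10, Myl12a, Myl12b and Myl6 stayed within 1.54-fold of the control by their brightest probe in every comparison.

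**Figure D2:**
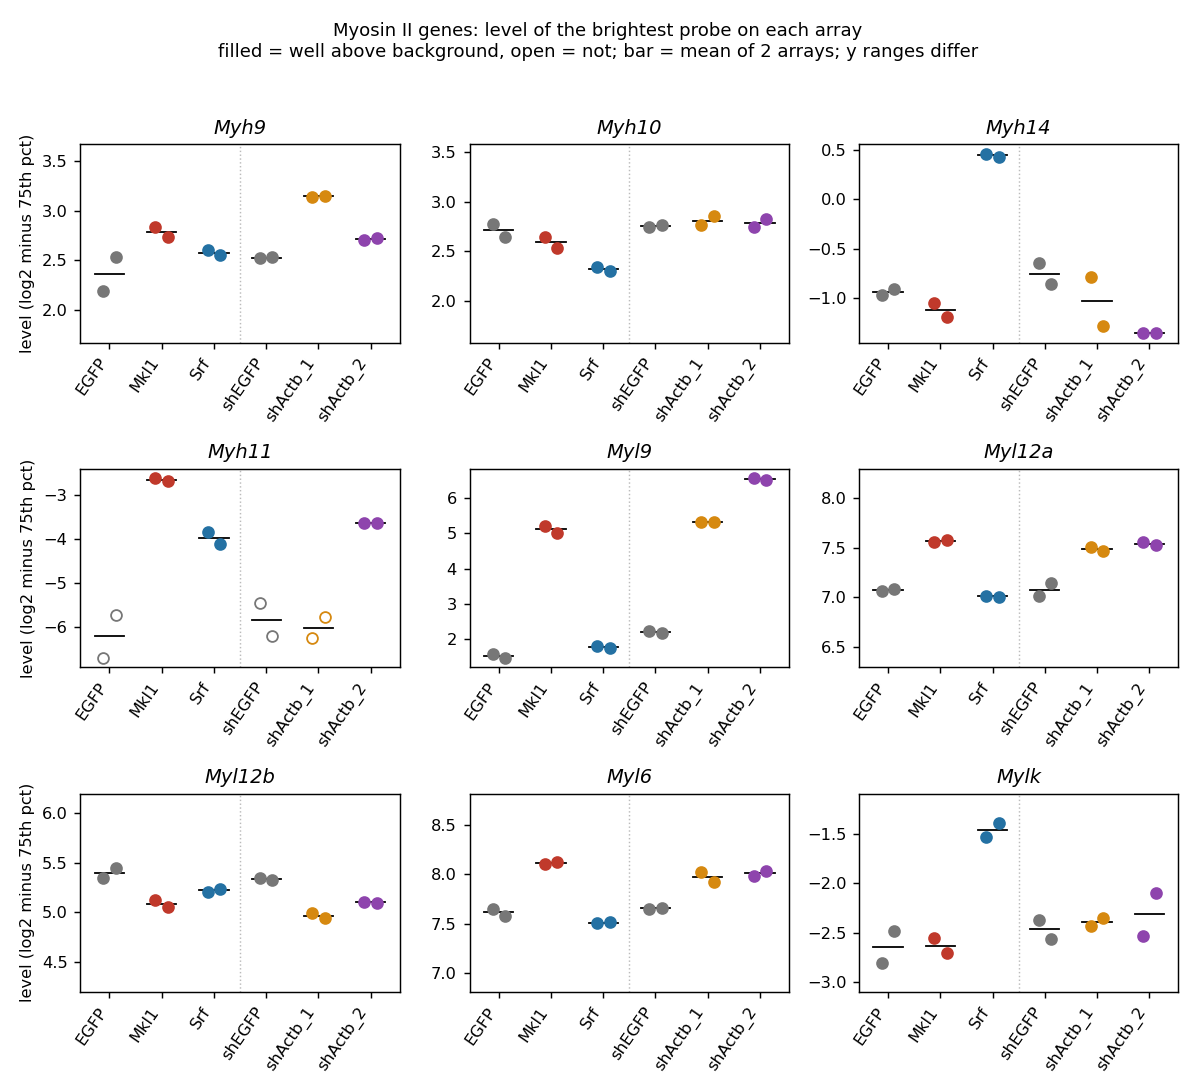
Level of the brightest probe of each myosin II gene on every array (vertical axis, log2 signal minus the 75th percentile of the array, with a range of its own in each panel) in the 6 groups. Filled points are well above background, open points are not, and bars are means of 2 arrays. Myl9 stands high in Mkl1, shActb_1 and shActb_2, Myh11 is above background in Mkl1, Srf and shActb_2, and Myh14 and Mylk stand high in Srf.

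Differences between groups were tested with limma on all probes together, with Benjamini-Hochberg adjusted p-values. A gene was called when the adjusted p of its brightest probe was under 0.05 and the change over 2-fold, and the share of all named genes called by the same rule is given as the background. On the arrays labelled Srf, 3 of 9 myosin II genes were called, all higher (Myh14, Myh11 and Mylk). Of 15692 named genes tested, 7.00% were called in either direction and 4.40% were called higher. With Mkl1, 2 of 9 were called, both higher (Myh11 and Myl9), against 3.84% of named genes in either direction and 1.88% higher. With shActb_1, 1 of 8 tested was called, Myl9, which was higher, against 2.40% of named genes in either direction and 0.744% higher. With shActb_2, 2 of 9 were called, both higher (Myh11 and Myl9), against 5.76% in either direction and 2.40% higher. With Srf, Mkl1 and shActb_2, Myh11 entered the test only through the treated group, its control being below background, so it could only come out higher and its calls are no support. Without it, 2 of 8 were called on the arrays labelled Srf, 1 of 8 with Mkl1 and 1 of 8 with shActb_2. The call left with Mkl1 and with shActb_2 is Myl9, the gene also called with shActb_1. The study names Myl9 as an Srf target raised by Actb knockdown on these samples, so the hairpin counts are not independent evidence. No myosin II gene was called lower against a control. The median difference over the myosin II genes tested was 0.22 (Srf), 0.42 (Mkl1), 0.20 (shActb_1) and 0.19 (shActb_2) on the log2 scale. Over all named genes tested it was -0.01, 0.02, 0.02 and 0.07. The Srf, Mkl1 and shActb_2 medians include Myh11 and are no support. Among the other 8 genes the middle 2 differences were -0.07 and 0.22 (Srf), 0.01 and 0.42 (Mkl1), and 0.15 and 0.19 (shActb_2).

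Without the fold limit more of the genes passed, but so did a large share of the array. At an adjusted p under 0.05 and any fold, 4 of 9 myosin II genes passed on the arrays labelled Srf (33.9% of named genes). With Mkl1, 6 of 9 passed (29.0%), with shActb_1 5 of 8 (14.0%) and with shActb_2 6 of 9 (44.5%). The Srf, Mkl1 and shActb_2 counts include Myh11, which entered only through the treated group and is no support there.

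**Figure D3:**
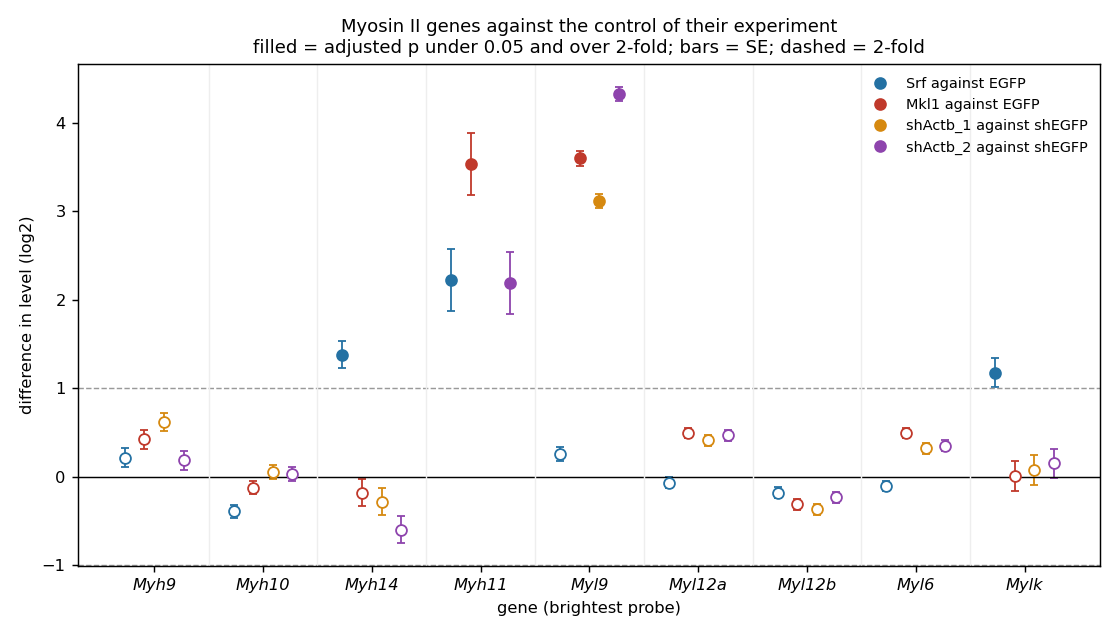
Difference in level between each group and the control of its experiment (vertical axis, log2) for the brightest probe of each myosin II gene, with standard errors from limma. Filled points passed an adjusted p of 0.05 and 2-fold (dashed lines), and Myh11 has no point for shActb_1 because it was not well above background in either group. Myl9 reaches 3.60 with Mkl1, 3.12 with shActb_1 and 4.33 with shActb_2 but 0.26 on the arrays labelled Srf.

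Among the heavy chains, Myh11 gave the widest span. Its probe (NM_001161775) read -6.69 and -5.71 in EGFP, -2.62 and -2.70 in Mkl1, and -3.85 and -4.10 on the arrays labelled Srf. In the knockdown experiment it read -5.45 and -6.20 in shEGFP, -6.23 and -5.77 in shActb_1, and -3.63 on both arrays of shActb_2. The signal was well above background on both arrays of Mkl1, Srf and shActb_2, and on no array of EGFP, shEGFP or shActb_1. A group below background has only a bound, so each dim array was set to the higher of its own signal and the lowest signal of any probe well above background on that array.

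The fitted differences and adjusted p-values of Myh11 are descriptions, since the gene was tested against EGFP and shEGFP only because it is high in the treated group. Against EGFP, Myh11 was at least 7.48-fold higher with Mkl1 (fitted difference 3.54, SE 0.35, adjusted p = 0.000924). On the arrays labelled Srf it was at least 3.01-fold higher (fitted difference 2.23, SE 0.35, adjusted p = 0.00337). With shActb_2 it was 4.57-fold higher than in shEGFP (fitted difference 2.19, SE 0.35, adjusted p = 0.00252). This is the fitted value and not a lower bound, since both shEGFP arrays read above the lowest signal well above background. Without shEGFP replicate 2 the fitted difference was 1.82. With shActb_1 Myh11 was not tested, since it was not well above background in either group, and its arrays overlapped those of shEGFP. In the order of group means, Mkl1, shActb_2 and Srf did not overlap, while shEGFP, shActb_1 and EGFP overlapped with their neighbours. The Myh11 differences were small in absolute signal, and a background correction that adds a fixed offset (normexp) left 1.39 for Mkl1, 0.66 for Srf and 0.78 for shActb_2 on the log2 scale, the last 2 of them under 2-fold. The bounds above therefore hold only for the scanner software's own background subtraction. When only the arrays compared were fitted, the adjusted p was 0.0625 for Mkl1 and 0.0588 for Srf.

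Myh14, the gene of heavy chain IIC, has 2 probes that disagree. The brighter probe (NM_001271538) read 0.45 and 0.43 on the arrays labelled Srf and -0.97 and -0.91 in EGFP, with -1.05 and -1.19 in Mkl1. Both arrays labelled Srf lay above all 10 other arrays for this probe. The difference from EGFP was 1.38 (SE 0.15, adjusted p = 0.000680), or 2.60-fold. The dimmer probe (NM_001271540) read -3.27 and -3.77 on the arrays labelled Srf and -3.03 and -3.39 in EGFP. Its groups overlapped, and the difference was -0.31 (SE 0.43, adjusted p = 0.634). Averaging both probes gave 0.54 (adjusted p = 0.137), so the Myh14 call rests on the brighter probe.

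With the hairpins, the brighter Myh14 probe read -0.64 and -0.86 in shEGFP, -0.79 and -1.28 in shActb_1 and -1.35 on both arrays of shActb_2. Both shActb_2 arrays were below both shEGFP arrays, with a mean difference of -0.60 (SE 0.15, adjusted p = 0.0175), which is under 2-fold. The adjusted p was 0.111 without shEGFP replicate 1, 0.0611 without shActb_2 replicate 1 and 0.0858 without shActb_2 replicate 2. The shActb_1 arrays overlapped those of shEGFP, and the difference was -0.28 (SE 0.15, adjusted p = 0.344). With Mkl1 the difference was -0.18 (SE 0.15, adjusted p = 0.431).

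Myh9 and Myh10, the genes of heavy chains IIA and IIB, showed differences under 2-fold. Myh9 was 3.15 ± 0.01 (SD, n = 2) with shActb_1 and 2.53 ± 0.00195 (SD, n = 2) in shEGFP, a rise of 0.62 (SE 0.11, adjusted p = 0.0118) or 1.54-fold, and its adjusted p was 0.0651 to 0.0790 when any one of the 4 arrays was left out. With Mkl1 it was 2.78 ± 0.07 (SD, n = 2) against 2.36 ± 0.24 (SD, n = 2) in EGFP, a rise of 0.42 (SE 0.11, adjusted p = 0.0284). The Myh9 arrays of EGFP stood further apart (2.19 and 2.53) than those of any other group. For shActb_2 and the arrays labelled Srf the differences were 0.19 (SE 0.11, adjusted p = 0.198) and 0.22 (SE 0.11, adjusted p = 0.173). The Myh9 differences from EGFP depended on single arrays. For Srf the difference was 0.046 (adjusted p = 0.649) without EGFP replicate 1 and 0.39 (adjusted p = 0.00592) without EGFP replicate 2. For Mkl1 it was 0.25 (adjusted p = 0.0453) and 0.60 (adjusted p = 0.00178) without these, and its adjusted p was 0.129 without Mkl1 replicate 1 and 0.0936 without Mkl1 replicate 2. Myh10 fell by 0.39 (SE 0.07, adjusted p = 0.00822) on the arrays labelled Srf, where it read 2.34 and 2.30 against 2.78 and 2.64 in EGFP, and a scaling on the median of each array left -0.26 (adjusted p = 0.169). Without Srf replicate 2 its adjusted p was 0.0616. In the other comparisons the Myh10 differences ran from -0.12 to 0.06, with overlapping arrays for Mkl1 and shActb_2, and their adjusted p-values ran from 0.286 to 0.782.

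Among the regulatory light chains, Myl9 moved and its relatives Myl12a and Myl12b moved little. The Myl9 probe read 1.57 and 1.46 in EGFP, 5.22 and 5.01 in Mkl1, and 1.80 and 1.74 on the arrays labelled Srf. In the knockdown experiment it read 2.24 and 2.18 in shEGFP, 5.33 on both arrays of shActb_1, and 6.57 and 6.52 in shActb_2. The 6 arrays of Mkl1 and of the hairpins against Actb all lay above the 6 other arrays, and no neighbours in the order of group means overlapped.

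Myl9 rose 12.1-fold with Mkl1 (3.60 on the log2 scale, SE 0.08, adjusted p = 1.74e-06). It rose 8.68-fold with shActb_1 (3.12, SE 0.08, adjusted p = 7.86e-06) and 20.1-fold with shActb_2 (4.33, SE 0.08, adjusted p = 6.54e-07). For Srf against EGFP the Myl9 difference was 0.26 (SE 0.08, adjusted p = 0.0559), or 1.19-fold, with both arrays above both EGFP arrays. The study itself names Myl9 as a known Srf target on these samples, so its direction with the hairpins is not independent evidence. Under the alternatives tried, the Myl9 difference ran from 3.49 to 3.82 with Mkl1, from 3.05 to 3.22 with shActb_1 and from 4.15 to 4.52 with shActb_2.

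Myl12a and Myl12b encode nearly identical regulatory light chains that are made in most cells, and whether each probe reads only its own gene was not tested. Myl12a rose by 0.50 (SE 0.06, adjusted p = 0.00195) with Mkl1, by 0.41 (SE 0.06, adjusted p = 0.00684) with shActb_1 and by 0.47 (SE 0.06, adjusted p = 0.00118) with shActb_2. Its difference on the arrays labelled Srf was -0.07 (SE 0.06 and adjusted p = 0.454), and a scaling on the array median turned this to 0.06 (adjusted p = 0.784). Myl12b fell, with differences of -0.31 (SE 0.06, adjusted p = 0.0104) for Mkl1, -0.37 (SE 0.06, adjusted p = 0.00990) for shActb_1 and -0.23 (SE 0.06, adjusted p = 0.0177) for shActb_2. For Srf against EGFP the Myl12b difference was -0.18 (SE 0.06, adjusted p = 0.0633). The Myl12b differences depended on the scaling, since the array median left -0.09 (adjusted p = 0.644) for Mkl1, -0.27 (adjusted p = 0.335) for shActb_1 and -0.04 (adjusted p = 0.814) for shActb_2.

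Single arrays also decided some of these p-values. For Myl12b the adjusted p was 0.0537 to 0.0760 for shActb_1 and 0.0638 to 0.107 for shActb_2 when any one of the 4 arrays was left out, and 0.0832 for Mkl1 without Mkl1 replicate 2. Without EGFP replicate 1 the Srf difference of Myl12b was -0.23 (adjusted p = 0.0375). For Myl12a with shActb_1 the adjusted p was 0.0527 without shEGFP replicate 1 and 0.0607 without shActb_1 replicate 1.

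The ratio of Myl12a to Myl12b within an array does not depend on such scaling. As a log2 ratio it was 1.72 and 1.64 in EGFP, 2.43 and 2.53 in Mkl1, and 1.80 and 1.77 on the arrays labelled Srf. In the knockdown experiment it was 1.67 and 1.82 in shEGFP, 2.52 on both arrays of shActb_1, and 2.46 and 2.43 in shActb_2. The ratio was higher than in the control by 0.81 with Mkl1, 0.78 with shActb_1, 0.70 with shActb_2 and 0.11 on the arrays labelled Srf. With 2 arrays against 2, an exact permutation test (two-sided) cannot give a p below 0.333, so these ratios are a description. They show unequal change of the 2 probes and not which gene changed.

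The essential light chain gene Myl6 was measured by 2 probes of the same accession. The brighter probe read 7.65 and 7.58 in EGFP, 8.10 and 8.12 in Mkl1, and 7.50 and 7.52 on the arrays labelled Srf. In the knockdown experiment it read 7.65 and 7.66 in shEGFP, 8.03 and 7.93 in shActb_1, and 7.98 and 8.03 in shActb_2. Both arrays of Mkl1 and of each hairpin against Actb were above both arrays of their control. The rises were 0.50 (SE 0.06, adjusted p = 0.00174) with Mkl1, 0.32 (SE 0.06, adjusted p = 0.0159) with shActb_1 and 0.35 (SE 0.06, adjusted p = 0.00320) with shActb_2, all under 2-fold. For Srf against EGFP the Myl6 difference was -0.10 (SE 0.06, adjusted p = 0.237), and the array median turned it to 0.02 (adjusted p = 0.921).

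With shActb_1 the adjusted p of the brighter probe was 0.107 without shEGFP replicate 1, 0.0750 without shEGFP replicate 2 and 0.117 without shActb_1 replicate 1. The second Myl6 probe gave 0.57 (SE 0.06, adjusted p = 0.00112) with Mkl1, 0.39 (SE 0.06, adjusted p = 0.00890) with shActb_1 and 0.79 (SE 0.06, adjusted p = 0.000175) with shActb_2. The probes thus had the same direction, and they differed in size for shActb_2. Quantile normalization left 0.01 (adjusted p = 0.916) of the brighter probe's rise with shActb_2. The highest Myl6 signal was 38.7% of the value at which the scanner saturates.

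Mylk, the gene of myosin light chain kinase, rose on the arrays labelled Srf and not detectably elsewhere. It read -1.53 and -1.39 on the arrays labelled Srf, -2.80 and -2.48 in EGFP, and -2.56 and -2.71 in Mkl1. It read -2.37 and -2.56 in shEGFP, -2.43 and -2.35 in shActb_1, and -2.53 and -2.10 in shActb_2. Both arrays labelled Srf lay above the 10 others, and all other neighbours in the order of group means overlapped. The difference from EGFP was 1.18 (SE 0.17, adjusted p = 0.00208), or 2.26-fold, and 0.86 with the normexp correction. With Mkl1 the difference was 0.01 (SE 0.17, adjusted p = 0.977), with shActb_1 0.08 (SE 0.17, adjusted p = 0.882) and with shActb_2 0.15 (SE 0.17, adjusted p = 0.499).

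The differences between treatments were tested directly. Between the arrays labelled Srf and Mkl1, 4 of 9 myosin II genes were called, against 7.22% of named genes. At any fold 7 of 9 passed, against 34.4% of named genes. Mylk was higher on the arrays labelled Srf by 1.17 (SE 0.17, adjusted p = 0.00197), and by 0.91, under 2-fold, with the normexp correction. Myh14 was higher on the arrays labelled Srf by 1.56 (SE 0.15, adjusted p = 0.000350). Myl9 and Myh11 were lower there, with differences of -3.34 (SE 0.08, adjusted p = 1.02e-06) and -1.31 (SE 0.35, adjusted p = 0.0294). The Myh11 call was lost when any of the 4 arrays compared was left out (adjusted p from 0.0863 to 0.140), and with both probes averaged the Myh14 difference was 0.82 (adjusted p = 0.0389). Myl12a, Myl6 and Myh10 were also lower on the arrays labelled Srf, with differences of -0.56 (SE 0.06, adjusted p = 0.000544), -0.60 (SE 0.06, adjusted p = 0.000354) and -0.27 (SE 0.07, adjusted p = 0.0357), all under 2-fold. The Myh10 difference was lost without any one of the 4 arrays (adjusted p from 0.0654 to 0.184).

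Between the hairpins, 2 of 9 genes were called, against 4.29% of named genes. Myh11 is one of them and entered only through shActb_2, so its call is no support, and without it the count is 1 of 8. Myl9 was 2.32-fold higher with shActb_2 than with shActb_1 (1.21 on the log2 scale, SE 0.08, adjusted p = 0.000203). Myh11 was at least 4.42-fold higher with shActb_2 (fitted difference 2.37, SE 0.35, adjusted p = 0.00276). Myh9 was lower with shActb_2 (difference -0.43, SE 0.11, adjusted p = 0.0182), which was lost without any one of the 4 arrays (adjusted p from 0.0709 to 0.0899). Actb itself differed between the hairpins by -0.12 (SE 0.05, adjusted p = 0.112). The slide differs with the hairpin, and its part in these differences cannot be told apart.

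**Figure D4:**
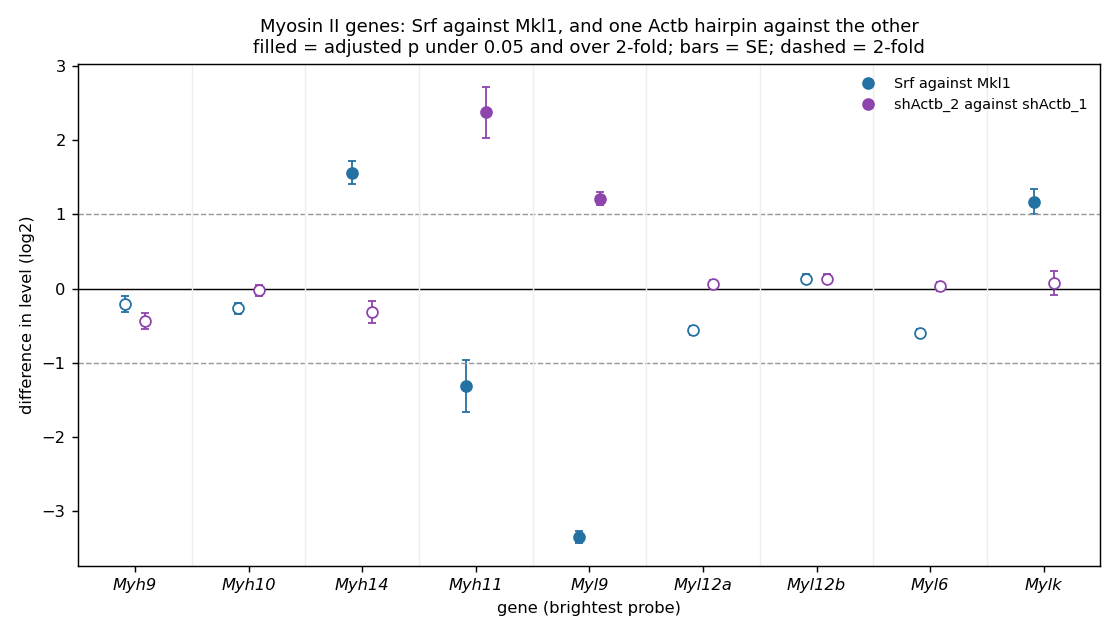
Difference in level between the arrays labelled Srf and Mkl1, and between shActb_2 and shActb_1 (vertical axis, log2), for the brightest probe of each myosin II gene, with standard errors from limma. Filled points passed an adjusted p of 0.05 and 2-fold (dashed lines). Myh14 and Mylk lie above 0 and Myl9 and Myh11 below it for Srf against Mkl1, and Myl9 and Myh11 lie above 0 for shActb_2 against shActb_1.

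The effect of Mkl1 (against EGFP) was also compared with that of shActb_1 (against shEGFP) in the same fit. Only Myh11 passed among the 9 genes, where 0.703% of named genes were called. It entered the test only through Mkl1, and the other 3 groups were not well above background, so the fitted difference of 3.72 (SE 0.50, adjusted p = 0.0255) is not a measured size, and the normexp correction gave 1.495. The call was lost without either Mkl1 array, without shEGFP replicate 1 or without either shActb_1 array (adjusted p from 0.0700 to 0.108). For Myl9 the effects differed by 0.48 (SE 0.12, adjusted p = 0.114). A limma fit with a mean-variance trend and robust estimation gave the same difference with an adjusted p of 0.0255, so this p-value depended on the setting.

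Other genes around myosin II were taken from lists. Of 25 kinases and upstream regulators that activate myosin II, 22 to 24 were tested per comparison. For Srf against EGFP, 2 were called higher and 1 lower. Dapk1 was at least 1.68-fold higher and Dapk2 was higher by 1.11 (SE 0.09, adjusted p = 0.000193), both of them death-associated protein kinases, while Pak1, a p21-activated kinase, had a difference of -1.02 (SE 0.11, adjusted p = 0.000543). With Mkl1 and with shActb_1 none was called, and with shActb_2 only Dapk1 was called, at least 2.41-fold higher. Dapk1 was not well above background in EGFP or shEGFP and entered these tests only through the treated group. Its calls could only be higher and are no support, which leaves Dapk2 as the only other gene called higher. The median difference of this list was 0.12, 0.15, 0.09 and 0.12 in the 4 comparisons with a control, in the order Srf, Mkl1, shActb_1, shActb_2.

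Of the 9 genes of myosin phosphatase and its inhibitors, which take the phosphate off the regulatory light chain, 8 were tested and none was called in any of the 4 comparisons. Their median differences were -0.06, 0.17, 0.09 and 0.12 in the same order. Of the 11 assembly partners, 10 or 11 were tested, and only Limch1, an activator of non-muscle myosin IIA, was called. It fell by 1.73 (SE 0.14, adjusted p = 0.000485) with Mkl1 and fell by 1.66 (SE 0.14, adjusted p = 0.000754) with shActb_1. The medians of this list were -0.14, 0.00297, -0.00836 and -0.10.

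Of the 21 sarcomeric myosin genes on the list, 16 were tested for Srf, 15 for Mkl1 and 9 for each hairpin, and with either hairpin none was called. Against EGFP on the arrays labelled Srf, Mybpc3, a sarcomere protein that binds myosin, was higher by 2.78 (SE 0.53, adjusted p = 0.00799) and Myh13 was at least 2.22-fold lower. Myh13 was not well above background on the arrays labelled Srf and entered only through EGFP, so its call could only be lower and is no support. With Mkl1, Myl1, an essential light chain of fast skeletal muscle, fell by 1.22 (SE 0.25, adjusted p = 0.0149). The medians were -0.41, -0.40, -0.00335 and 0.15.

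Of 21 unconventional myosins, which carry cargo or link membranes to actin, 17 or 18 were tested. With Mkl1, Myo7b rose by 2.29 (SE 0.25, adjusted p = 0.00122) and Myo1e by 1.02 (SE 0.15, adjusted p = 0.00426). Myo5c fell by 1.003 (SE 0.16, adjusted p = 0.00373) on the arrays labelled Srf and fell by 1.51 (SE 0.16, adjusted p = 0.000539) with shActb_2. No gene of this list was called with shActb_1, and the medians were -0.01, 0.01, -0.03 and -0.10. Between the arrays labelled Srf and Mkl1, 3 unconventional myosins were lower and 1 higher. The differences were -1.78 for Myo7b, -1.35 for Myo1e and 1.40 for Myo1d, with adjusted p-values from 0.000117 to 0.00171.

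Several smooth muscle markers were called higher in each comparison with a control. Of the 8 markers, 5 of 7 tested were called higher on the arrays labelled Srf, 6 of 7 with Mkl1, 4 of 6 with shActb_1 and 6 of 7 with shActb_2, and none was called lower. Des was called in none of the 4, and Smtn was called with Mkl1 and shActb_2. Myh11 is one of them, and without it the counts are 4 of 6, 5 of 6, 4 of 6 and 5 of 6 in that order. Without Myh11, the summed signal of the other 7, in units of the array's 75th percentile, was 15.5 to 16.7 in EGFP, 161 to 168 in Mkl1 and 45.2 to 50.8 on the arrays labelled Srf. It was 15.7 to 18.4 in shEGFP, 104 to 110 in shActb_1 and 152 to 154 in shActb_2. Lmod1 was not well above background on any array. Acta2 was higher by 3.37 on the arrays labelled Srf, where Myl9 differed by 0.26, and by 6.93 with Mkl1. Whether smooth muscle cells were present was not tested.

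The summed signal of the 6 fibroblast markers was lower than in the control in all 4 comparisons. It was 170 to 171 in EGFP, 99.9 to 120 in Mkl1, 97.5 to 101 on the arrays labelled Srf, 134 to 142 in shEGFP, 103.0 to 114 in shActb_1 and 80.5 to 83.6 in shActb_2. On the arrays labelled Srf the lower sum came from Col1a2 and Col3a1, while Col1a1 was at 3.62 against 3.19 and Dcn at 2.59 against 1.74 in EGFP, and the median difference of the list was 0.05. The list medians were -0.71 with Mkl1, -0.49 with shActb_1 and -0.65 with shActb_2. The sum of the 6 skeletal muscle markers was higher in all 4, with 0.609 to 0.769 in EGFP, 1.44 to 1.501 in Mkl1, 5.18 to 5.72 on the arrays labelled Srf, 0.462 to 0.468 in shEGFP, 1.09 to 1.15 in shActb_1 and 1.53 to 1.60 in shActb_2. In the treated groups this sum is mostly Tnnt3. Tnnt3 differed by 3.50 (Srf), 1.504 (Mkl1), 2.12 (shActb_1) and 2.60 (shActb_2) on the log2 scale, while Des was at -3.19 with Mkl1 and -2.95 in EGFP (adjusted p = 0.0995). The median differences over the 3 or 4 skeletal markers tested were 2.32 (Srf), 0.34 (Mkl1), 0.12 (shActb_1) and 0.77 (shActb_2). The sum of the neural progenitor markers was 280 to 297 in EGFP, 323 to 336 in Mkl1, 258 to 267 on the arrays labelled Srf, 253 to 257 in shEGFP, 273 to 277 in shActb_1 and 365 to 366 in shActb_2. This sum is mostly Vim, and the median difference over the list was -0.04 for Srf, -0.24 for Mkl1, -0.31 for shActb_1 and -0.24 for shActb_2. Of the skeletal muscle markers, Myog was above background in no group, and Myod1 and Ckm on no array of EGFP, Mkl1 or Srf. Tnnt3 was called higher in all 4 comparisons with a control and Actn3 on the arrays labelled Srf. The fibroblast marker Dcn was called lower with Mkl1 and with each hairpin, and on the arrays labelled Srf Col1a2 was called lower and Lum higher. Lum was not well above background in EGFP and entered only through the arrays labelled Srf. Its call could only be higher and is no support, and the fibroblast list median of 0.05 for Srf includes it. The endothelial markers Cdh5 and Tek were not above background on any array, and no endothelial or embryonic stem cell marker was called in the 4 comparisons with a control. Of the neuron markers, Tubb3 was called higher on the arrays labelled Srf, Map2 lower with Mkl1 and both hairpins, and Syt1 lower with Mkl1. Of the neural progenitor markers, Sox2 was called lower on the arrays labelled Srf, Slc1a3 lower and Nes higher with Mkl1, Sox2, Fabp7 and Slc1a3 lower with shActb_1, and Slc1a3 lower with shActb_2. The part of these shifts in the myosin II results was not tested.

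The genes most like each called myosin II gene were found by Pearson r over the 12 arrays, after the mean of each experiment was subtracted, among 16684 other named genes. The points share 2 controls and technical duplicates, so r is a description. Myl9 was most like Wdr1 (r = 0.991), Msln (0.989) and Tuba1c (0.988). Myh11 was most like Cd9 (0.978), Cdc37l1 (0.969) and Dazap2 (0.967). Its r values rest partly on background, since Myh11 was not well above background on any array of EGFP, shEGFP or shActb_1. Myh14 was most like Pm20d1 (0.989), C1qtnf1 (0.980) and Efr3b (0.977), and Mylk was most like Pla2g4e (0.963), Grtp1 (0.962) and Tmod1 (0.961).

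Among the myosin II genes themselves, the same measure gave 0.965 for Myl9 with Myl12a, 0.928 for Myl9 with Myl6 and 0.975 for Myl12a with Myl6. Myl9 and Myl12b gave -0.807. Myh14 and Mylk gave 0.842, and each of them was opposite to Myh10 (-0.824 and -0.817). Myh11 gave 0.719 with Myl9 and 0.201 with Mylk, again partly from arrays where it was not well above background.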

How the data were processed

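Each of the 12 samples was hybridised to a 1-colour Agilent array of 62976 spots. The authors extracted spot values with Feature Extraction 11.5.1.1, and the deposited scanner tables hold intensity on a linear scale, already background-corrected by that software. The deposited log2 table of the authors matched log2 of these signals within 0.01 and a constant shift per array for 100% of probes, and it was also fitted as an alternative.

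Here the processed signal was averaged over spots of a probe, without flagged spots, and turned to log2 minus the 75th percentile of each array. Probes were named through RefSeq accessions, which gave a symbol to 28026 of 55681 probes (50.3%). limma 3.58.1 in R 4.3.3 fitted 1 mean per group to all 12 arrays, with eBayes over probes well above background on both arrays of at least 1 group compared. The fit was tested on simulated data. A gene was read by the probe of the highest mean level. Only 2 arrays per group limit the precision.

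The members and the gene and marker lists were chosen with earlier results of these data known. Named genes were all members, the targeted genes, at most 3 called genes per list and comparison, and the 3 genes most like each called member. Markers were described by count and summed level. Alternatives in the data were the deposited log2 table, the normexp correction (offset 50), quantile and median scaling, and other filters on dim probes. Alternatives in the fit were the compared arrays alone, a mean-variance trend with robust estimation, averaged probes, no fold limit, a replicate block and leaving out each array. Same-numbered arrays of different groups deviated together at r = -0.138 to 0.261 over 15 pairs of groups, of which 6 were over 0.1, so the numbers were not taken as pairs.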

Additional observations from a re-analysis of the deposited data

Results flagged for a closer look

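Between shActb_2 and shActb_1, 2 myosin II genes were called by the direct test, of which only Myl9 was well above background in both groups. Myl9 was higher with shActb_2 than with shActb_1 by 1.21 (SE 0.08, adjusted p = 0.000203, limma), and both arrays of shActb_2 lay above both arrays of shActb_1. Myh11 was not well above background with shActb_1 and entered the test only through shActb_2, so its call is no support and its difference has only a bound, at least 4.42-fold higher with shActb_2 (fitted difference 2.37, adjusted p = 0.00276, limma; 0.89 with the normexp correction). Slide and hairpin cannot be told apart in both.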

How the results depend on the processing

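With the normexp correction 1 myosin II gene in place of 3 was called for Srf against EGFP (Myh14), 2 in place of 4 for Srf against Mkl1, 1 in place of 2 for shActb_2 against shEGFP and 1 in place of 2 between the hairpins. The calls over all named genes fell too, from 1099 to 576 (Srf), 602 to 272 (Mkl1), 380 to 188 (shActb_1), 915 to 336 (shActb_2), 1136 to 673 (Srf against Mkl1) and 672 to 189 (between the hairpins). With only probes well above background on all 12 arrays, which leaves Myh11 untested, 2 were called for Srf, 1 for Mkl1, 1 for shActb_2, 3 for Srf against Mkl1 and 1 between the hairpins, with 812, 454, 590, 855 and 404 of 13927 named genes called. A fit of the compared arrays alone called 2 for Srf (without Myh11, adjusted p = 0.0588, limma) and 1 for Mkl1 (Myl9), where calls over all named genes went from 1099 to 898 and from 602 to 86, and the smaller Mkl1 differences of Myl12a, Myl6, Myl12b and Myh9 then had adjusted p of 0.103, 0.107, 0.192 and 0.210 (limma). Without the fold limit 6 passed for Mkl1, 5 for shActb_1, 6 for shActb_2 and 7 for Srf against Mkl1. The shares of named genes were 29.0%, 14.0%, 44.5% and 34.4%. Where Myh11 is in a count against EGFP or shEGFP or between the hairpins, it entered through 1 group only and is no support. Leaving out 1 array gave 3 for Srf, 2 for Mkl1, 1 for shActb_1, 2 for shActb_2, 3 for Srf against Mkl1 and 2 between the hairpins, while calls over all named genes ran from 1004 to 1360, 467 to 937, 320 to 364, 747 to 1150, 1065 to 1140 and 571 to 780. For Mkl1 the highest was without EGFP replicate 2. For the Mkl1 effect minus the shActb_1 effect, whose alternatives were chosen after seeing the data, the count of 1 became 0 with no filter, with the filter on all 12 arrays and with the compared arrays alone, and 0 to 1 without 1 array. The cause was not tested.

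Only differences that had not passed the test turned direction. Median scaling gave 0.099 for Myh10 and 0.039 for Myh14 with Mkl1, 0.066 for Myh10 between the hairpins, and 0.058 for Myl12a and 0.022 for Myl6 with Srf. Quantile scaling gave -0.022 (shActb_1) and -0.11 (shActb_2) for Myh10, and -0.15 for Myl12a and -0.23 for Myl6 between the hairpins. Normexp gave -0.043 for Mylk with Mkl1. Leaving out 1 array gave a range of -0.15 to 0.17 for Mylk with Mkl1, -0.021 to 0.17 with shActb_1, -0.066 to 0.37 with shActb_2 and -0.14 to 0.29 between the hairpins. It gave -0.0092 to 0.072 for Myh10 with shActb_2, -0.071 to 0.024 for Myh10 between the hairpins and -0.020 to 0.081 for Myl6 between the hairpins.

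With the replicate number as a block, no call changed (Myl9 with Mkl1 3.60, adjusted p = 5.70e-06, limma). A slide term leaves comparisons within a slide as they are and cannot be fitted for shActb_2. Median scaling moved the median of all genes by 0.12 (Srf), 0.22 (Mkl1) and 0.19 (shActb_2), and the share of called genes that were higher from 62.8% to 74.1% (Srf), 48.8% to 75.1% (Mkl1), 31.1% to 41.8% (shActb_1), 41.6% to 66.6% (shActb_2) and 53.1% to 65.7% (between the hairpins), but from 65.8% to 57.4% for Srf against Mkl1.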
